A study of Mus musculus with 19 samples.

Results

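The genes described here encode the proteasome, the protease that degrades ubiquitin-tagged proteins. They were taken from a table of 12799 mouse genes as every symbol that starts with Psm, a letter from a to g and a number. The immunoproteasome genes Psmb8 and Psmb9 and pseudogene symbols were left out. This gave 47 genes. Of these, 45 encode proteasome subunits, activators, an inhibitor or assembly chaperones. Psmc3ip, a partner of meiotic recombinases, and Psme3ip1, which binds the activator Psme3, matched by name but encode no such component. The 45 genes comprised 7 alpha subunits and 8 beta subunits of the catalytic core, 6 ATPases and 14 non-ATPase genes of the regulatory particle, 5 activators, 1 inhibitor and 4 assembly chaperones. The non-ATPase group takes in Psmd5, Psmd9 and Psmd10, which help to assemble the regulatory particle.

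The catalytic core is a barrel of stacked rings. The outer rings of alpha subunits form a gate, and the inner rings of beta subunits hold the proteolytic sites of Psmb5, Psmb6 and Psmb7. A regulatory particle caps the barrel: its non-ATPase subunits bind and strip ubiquitin chains, and its ring of Psmc ATPases unfolds the substrate and feeds it through the gate. In cells exposed to interferon, Psmb8, Psmb9 and Psmb10 can replace the standard catalytic subunits, and the activators Psme1 and Psme2 can bind in place of the regulatory particle. When proteasome capacity is short, the transcription factor Nfe2l1 induces subunit genes together through antioxidant response elements.

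The RNA came from peritoneal fibroblasts sorted by YFP from C57BL/6;Col1a1-YFP mice, in which the collagen gene Col1a1 drives the reporter, so the sort was for cells with Col1a1 activity. Transcripts of other cell types were still present in the libraries. Control mice had received PBS in the peritoneum (normal, 5 libraries). The other mice had received tdTomato+ ID8 cells, a single mouse ovarian carcinoma line, and were sampled at day 7 (5 libraries), day 28 (5 libraries) or end stage (4 libraries). All 19 libraries were MARS-seq of polyadenylated RNA, and the labels call them biological replicates. The sources used here give neither the day of end stage nor the age of the mice, and do not say whether mice were pooled.

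Library totals ran from 66061 to 2449339 counts. Day 28 replicates 1 and 2 and end stage replicate 5 had under 150000. The 8 fibroblast markers summed to 22483 to 31911 CPM (counts scaled to a common library total) in normal, 27717 to 37183 at day 7, 18647 to 52049 at day 28 and 26092 to 39049.9 at end stage. The 9 macrophage markers, all present in the table, summed to 64.5 to 123, 47.5 to 71.4, 11.9 to 302 and 121 to 452 CPM in the same order. The 5 erythrocyte markers summed to 59.6 to 151, 172 to 504, 63.8 to 378 and 62.02 to 1575 CPM. The 10 of 11 mesothelial markers in the table summed to 574 to 1403, 229 to 831, 407 to 727 and 288 to 636 CPM, and the 21 immediate-early genes to 30565 to 48027, 30514 to 43336, 23484 to 44241 and 22566 to 35533 CPM. No listed marker that was in the table was at 0 in every library. Of 7 T and NK cell markers and 5 B cell markers, 1 each was among the genes of the table. In bulk RNA, fewer cells of a type and less RNA per cell cannot be told apart.

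Promoter sequences are shown for 4 members, chosen after their values were seen: Psmb4 and Psmd1, which had the smallest p-values at day 28, and the catalytic subunits Psmb5 and Psmb6, whose promoters hold the antioxidant response element core. They come from RefSeq on GRCm38.p6, 300 bases each, read on the gene's strand from 250 bases before the transcription start. Capitals mark TGACNNNGC on either strand. Psmb4 lies at chr3:94886909-94887208 on the minus strand, Psmd1 at chr1:86064369-86064668 on the plus strand, Psmb5 at chr14:54617946-54618245 on the minus strand and Psmb6 at chr11:70525107-70525406 on the plus strand.
Psmb4: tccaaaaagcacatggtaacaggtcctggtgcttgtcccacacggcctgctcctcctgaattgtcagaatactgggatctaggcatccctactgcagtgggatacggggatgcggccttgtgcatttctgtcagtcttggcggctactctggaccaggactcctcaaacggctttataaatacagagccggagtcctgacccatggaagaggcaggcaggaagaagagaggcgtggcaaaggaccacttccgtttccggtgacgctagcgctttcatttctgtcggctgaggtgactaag
Psmd1: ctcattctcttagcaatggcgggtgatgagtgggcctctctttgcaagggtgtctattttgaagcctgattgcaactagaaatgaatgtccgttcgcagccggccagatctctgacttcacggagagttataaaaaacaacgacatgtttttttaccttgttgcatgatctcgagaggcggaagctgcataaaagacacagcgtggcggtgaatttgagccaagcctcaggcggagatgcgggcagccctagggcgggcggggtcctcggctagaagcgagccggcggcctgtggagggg
Psmb5: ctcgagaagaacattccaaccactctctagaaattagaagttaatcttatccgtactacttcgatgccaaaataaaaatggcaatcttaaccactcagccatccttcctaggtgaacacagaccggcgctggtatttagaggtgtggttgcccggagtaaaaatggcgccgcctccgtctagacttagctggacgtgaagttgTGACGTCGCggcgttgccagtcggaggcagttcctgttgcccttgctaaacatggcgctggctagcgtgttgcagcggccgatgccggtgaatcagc
Psmb6: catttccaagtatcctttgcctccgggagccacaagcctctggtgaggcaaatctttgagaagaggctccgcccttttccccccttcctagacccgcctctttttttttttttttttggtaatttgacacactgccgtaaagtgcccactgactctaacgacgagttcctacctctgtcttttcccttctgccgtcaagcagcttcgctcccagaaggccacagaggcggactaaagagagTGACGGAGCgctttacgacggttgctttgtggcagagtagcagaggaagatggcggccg

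RefSeq promoters were found for 40 of the 47 members, 44 promoters in all. TGACNNNGC occurred on either strand in 6 of the 44 (13.6%), those of Psmb5, Psmb6, Psmc6, Psmd9, Psmd12 and Psme4, and in 12.4% of all 32851 promoters of the same length. The core of the interferon response element, GAAA followed after 2 bases of any kind by GAAA, occurred on either strand in 5 of the 44 (11.4%), those of Psmb3, Psmd4, Psmd9, Psme1 and Psmg4, and in 3.44% of all promoters. Neither motif contains the other. A match is a description of the letters in this window only.

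Summed over the 45 proteasome genes, the level was 3380.3 ± 333 CPM in normal, 3638 ± 255 at day 7, 3666 ± 548 at day 28 and 3833 ± 262 at end stage (SD; n = 5, 5, 5 and 4). The ranges of the 4 groups overlapped, and the largest SD was that of day 28, which holds 2 of the 3 shallowest libraries. Beta subunits together had 965 ± 98.3, 1126 ± 71.8, 1276 ± 320.5 and 1139 ± 68.4 CPM in the same order. Alpha subunits had 258 ± 88.3, 305 ± 90.6, 204 ± 39.9 and 272 ± 95.9 CPM. The alpha sum was lowest on average at day 28 and the beta sum highest, and both kept overlapping ranges. Day 28 also had the lowest mean library total, 185979 counts. In the deepest libraries, end stage replicate 4, day 7 replicates 3 and 4 and normal replicate 2, the alpha sum was 388, 388, 396 and 320 CPM. It was 309 CPM in end stage replicate 5, a shallow library. The part of depth in the alpha sum was not tested. The ATPases had 557 ± 82.0, 613 ± 23.7, 586 ± 57.1 and 617 ± 53.1 CPM, and the non-ATPase genes 1007 ± 159, 1080.0 ± 119.9, 1017 ± 167 and 1181 ± 126 CPM.

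**Figure D1:**
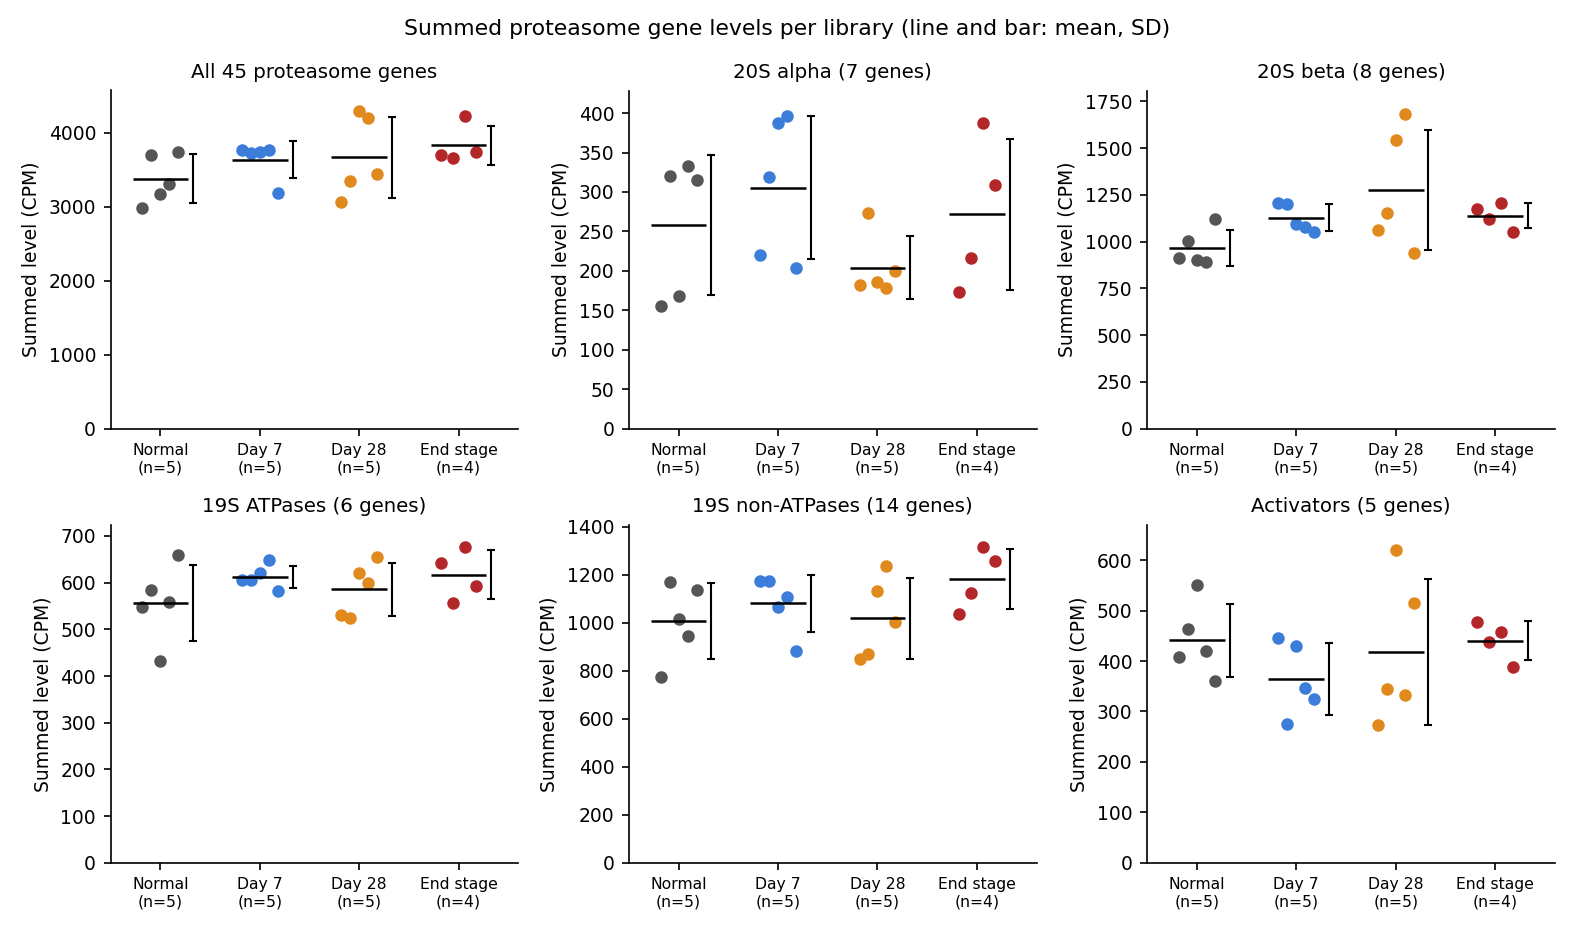
Summed level of the 45 proteasome genes and of 5 of their roles, in CPM of the library total (y axis, from 0), per library (points) in normal, day 7, day 28 and end stage; lines are means and bars SD. The 4 groups overlap in the sum over all 45 genes, and day 28 spreads most in the beta subunits.

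Of the 47 members, 34 passed the filter on low counts (5980 genes in all) and held 94.5% of the members' counts. The 34 include Psme3ip1, so 33 of them are proteasome genes. No member passed an adjusted p of 0.05 in any of 7 comparisons, nor in the joint test of all 3 stages against normal, by edgeR's quasi-likelihood test, DESeq2 or limma-voom. DESeq2 gave no adjusted p for 1 member in end stage against day 7. Among all genes, the share called by edgeR was 0.0502% at day 7, 0% at day 28 and 0.401% at end stage against normal, and 0.0502% for the 3 stages averaged. It was 0% for day 28 against day 7, 0.401% for end stage against day 28, 0.468% for end stage against day 7 and 0.686% for the joint test. A count of 0 among 34 members is near these shares. In the authors' deposited table, 0 of the 47 members had an adjusted p under 0.05 in any of its 6 comparisons, and the lowest was 0.327, for end stage against day 28. The share of all genes under 0.05 in that table was not counted, so this 0 has no share to be read beside.

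The intervals show how large a difference each fit leaves room for. Against normal, the 95% interval of the log2 fold change lay within a 2-fold difference in either direction for 22 of 34 members at day 7, 16 at day 28 and 20 at end stage. For the average of the 3 stages against normal it did so for 29 of 34. These intervals are per gene and not adjusted for the number of genes, and the count within 2-fold was chosen after values were seen. They rest on SE back-calculated from edgeR's F statistic, so they are approximate.

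**Figure D2:**
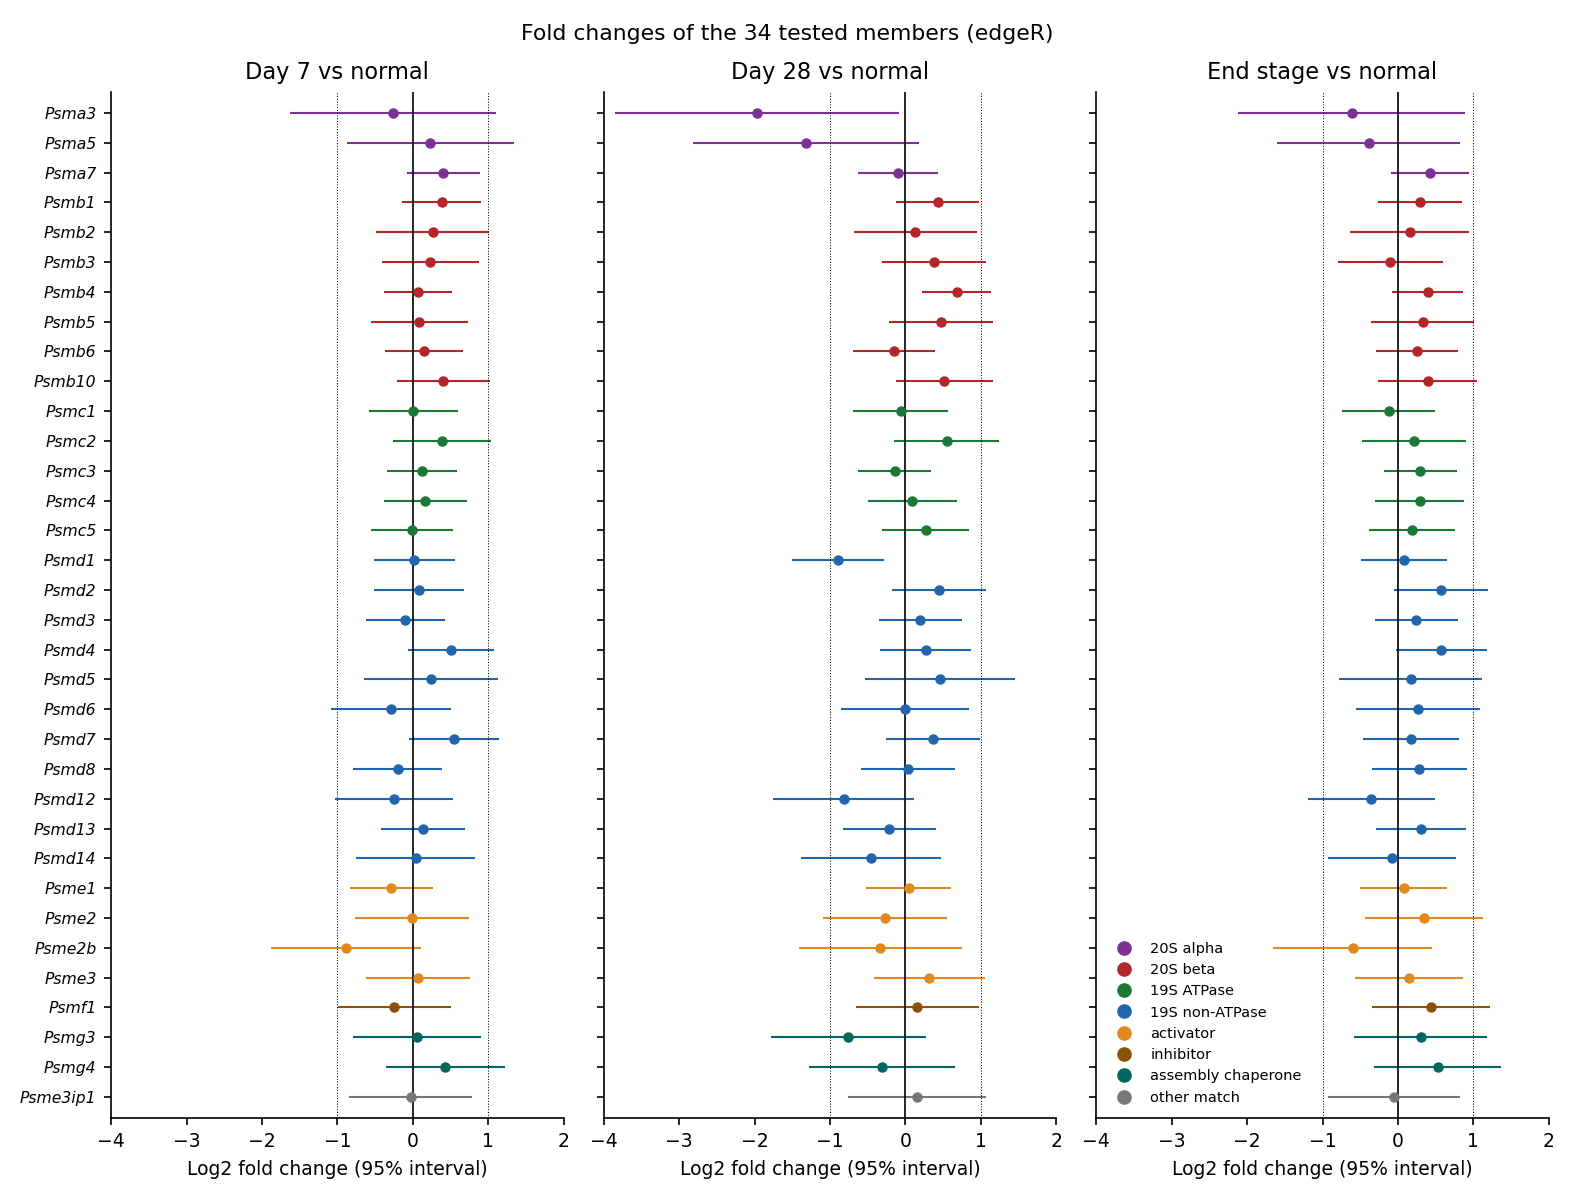
Log2 fold change (x axis) with its 95% interval for the 34 tested members (rows, coloured by role) at day 7, day 28 and end stage against normal; dotted lines mark a 2-fold difference. Most points lie near 0, and the widest intervals belong to Psma3 and Psma5 at day 28.

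At day 7, a stage early after injection, all 7 tested beta subunits had small positive fold changes against normal and no member passed the test. Of the 34 members, 23 had a positive log2 fold change, with a median of 0.078, beside 47.9% positive and a median of -0.016 over all genes tested. Leaving out 1 library at a time gave this median values from 0.038 (without normal replicate 3) to 0.15 (without normal replicate 5). At an unadjusted p under 0.05, edgeR found 0 members, DESeq2 0 and limma-voom 2, beside 3.48% of all genes by edgeR. Among beta subunits 7 of 7 were positive (median 0.23), and among ATPases 4 of 5 (median 0.13). Non-ATPase genes were positive in 7 of 11 (median 0.040) and activators in 1 of 4 (median -0.15). In no member did the 5 day 7 libraries and the 5 normal libraries separate, beside 0.753% of all genes. Erythrocyte markers had positive fold changes in 4 of 4 tested at day 7 (median 1.54), with their sum in every day 7 library above every normal library, and mesothelial markers were negative in 8 of 8 tested (median -0.90); none was called, and their part in the members' values was not tested.

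The smallest p-values at day 7 belonged to Psmd7, the lid subunit that pairs with the deubiquitinase Psmd14, and to Psmd4, a receptor for ubiquitin chains. Psmd7 was at 355, 174, 128, 130.0 and 99.7 CPM in day 7 replicates 1 to 5, against 104, 129.9, 141, 114.5 and 92.6 CPM in normal replicates 1 to 5. The ranges overlapped, and the log2 fold change was 0.55 ± 0.29 (SE; unadjusted p = 0.0707, adjusted p = 0.999, edgeR). It was 0.18 without day 7 replicate 1, the highest library. Psmd4 was at 260.4, 209, 145, 142 and 126 CPM at day 7, against 54.5, 159.5, 141, 109.5 and 128 CPM in normal. Day 7 replicates 1 and 2 lay above every normal library and the other 3 within the normal range, with a log2 fold change of 0.51 ± 0.28 (adjusted p = 0.999, edgeR). Psma7, an alpha-ring subunit, averaged 182 ± 42.9 CPM at day 7 and 138 ± 26.9 CPM in normal (log2 fold change 0.40 ± 0.24). Psmb1, a non-catalytic beta subunit, averaged 252 ± 34.9 and 194 ± 38.0 CPM (0.38 ± 0.26). The lowest log2 fold change was that of Psme2b, a near-identical copy of the activator gene Psme2, at -0.88 ± 0.49. This was -0.39 without normal replicate 4 and -0.25 with libraries thinned to 200000 counts, and reads of the copies cannot be assigned with certainty.

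At day 28, members pointed in different directions: fold changes against normal were mostly positive for beta subunits and negative for the 3 tested alpha subunits. Among these alpha subunits Psma7 had a small fold change, and again no member passed the test. Of 34 members 19 were positive, with a median of 0.069, beside 48.1% and -0.019 over all genes. The sign of this median was not stable: leaving out 1 library gave -0.016 (without day 28 replicate 4) to 0.19 (without day 28 replicate 2), and no filter on low counts gave -0.015. Without Psme3ip1, 18 of 33 members were positive, with a median of 0.047. At an unadjusted p under 0.05, edgeR found 3 members, DESeq2 2 and limma-voom 3, beside 7.06% of all genes by edgeR. Among beta subunits 6 of 7 were positive (median 0.43), and among alpha subunits 0 of 3 (median -1.31). That alpha median is the value of Psma5. Psma7, the tested alpha subunit with the most counts, was at -0.099, and at 0.096 with libraries thinned to 200000 counts. ATPases were positive in 3 of 5 (median 0.092), non-ATPase genes in 6 of 11 (median 0.037), activators in 2 of 4 (median -0.11) and assembly chaperones in 0 of 2 (median -0.53). Interferon-stimulated markers, a list that includes Psmb8 and Psmb9, were positive in 17 of 19 tested at day 28 (median 0.72) with none called. Other lists moved too, also with none called. Skeletal muscle markers were positive in 0 of 4 (median -1.25) and mesothelial markers in 1 of 8 (median -0.43). Macrophage markers were positive in 2 of 2 (median 0.99) and erythrocyte markers in 4 of 4 (median 0.66). The part of all these markers in the members' values was not tested.

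Psmb4 (ENSMUSG00000005779), a non-catalytic beta subunit, had the smallest p-value at day 28. It was at 286, 436, 510.3, 570.1 and 282 CPM in day 28 replicates 1 to 5, against 240.0, 257, 273, 244 and 284 CPM in normal replicates 1 to 5. Replicates 2, 3 and 4 lay well above the normal libraries, replicate 1 just above and replicate 5 just below the highest of them. The log2 fold change was 0.68 ± 0.23 (95% interval 0.22 to 1.14; unadjusted p = 0.00475, adjusted p = 0.572, edgeR). It was 0.79 without the 3 libraries under 150000 counts.

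Psmd1 (ENSMUSG00000026229), a large scaffold subunit of the regulatory particle's base, was the lowest relative to normal among non-ATPase genes at day 28. It was at 60.3, 22.4, 70.4, 50.9 and 76.4 CPM at day 28, against 81.8, 129.9, 85.9, 129 and 113.5 CPM in normal. All 5 day 28 libraries lay below all 5 normal libraries, by a narrow gap between the highest day 28 value and the lowest normal value. It was the only tested member whose groups separated, beside 1.09% of all genes. The raw counts at day 28 were 4, 2, 12, 10 and 32, so replicates 1 and 2, the shallowest libraries, contributed few reads. The log2 fold change was -0.89 ± 0.30 (95% interval -1.50 to -0.28; unadjusted p = 0.00569, adjusted p = 0.579, edgeR), and -0.72 without the 3 libraries under 150000 counts.

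Psma3 (ENSMUSG00000060073), an alpha-ring subunit, was at 0, 22.4, 5.87, 0 and 19.1 CPM at day 28, against 5.45, 50.2, 19.5, 62.2 and 65.7 CPM in normal. Day 28 replicates 1 and 4 had no count, which at their depth allows up to 45.4 and 14.5 CPM, and normal replicates 1 and 3 lay within the day 28 range. The log2 fold change was -1.97 ± 0.91 (95% interval -3.85 to -0.087; unadjusted p = 0.0411, adjusted p = 0.699, edgeR). Psma5, another alpha subunit, was at 11.7 ± 14.0 CPM at day 28 and 21.7 ± 16.1 CPM in normal (-1.31 ± 0.74; adjusted p = 0.744; -0.80 without day 28 replicate 5). Its raw counts in day 28 replicates 1 to 5 were 0, 3, 3, 1 and 1. Psmd12, a lid subunit, was at 36.4 ± 16.5 and 54.9 ± 27.7 CPM (-0.82 ± 0.46).

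**Figure D3:**
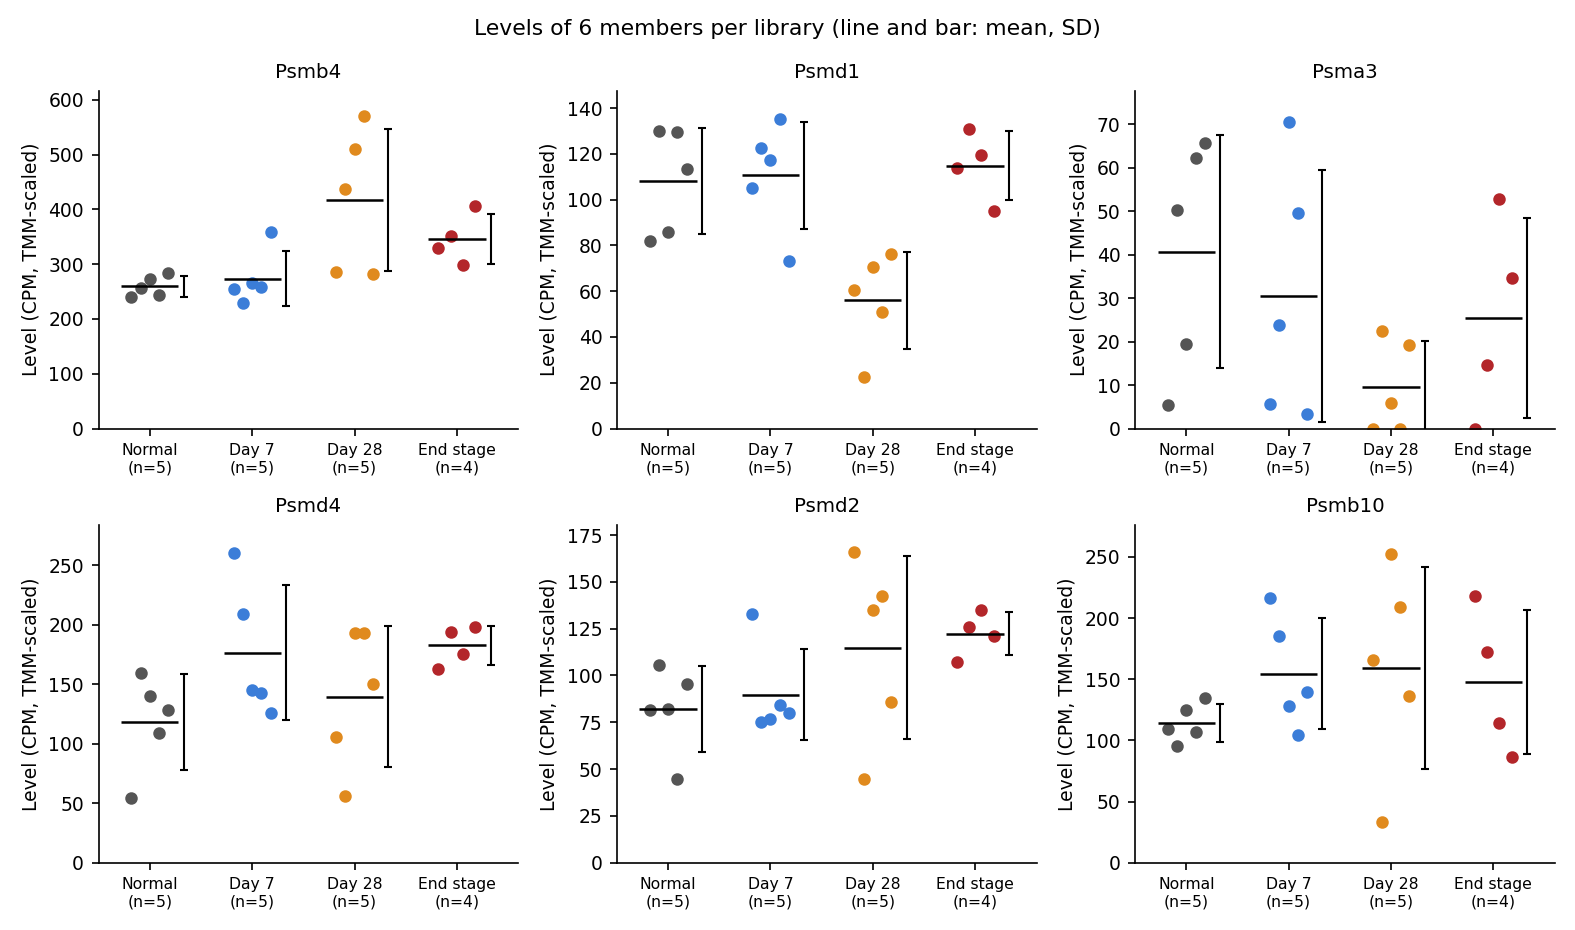
Level of Psmb4, Psmd1, Psma3, Psmd4, Psmd2 and Psmb10 in CPM with TMM scaling (y axes, from 0) per library (points) in normal, day 7, day 28 and end stage; lines are means and bars SD. Psmd1 at day 28 lies below all normal libraries, and Psmb4 at day 28 spreads from within the normal range upward.

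At end stage, more members lay above normal than below, by small amounts, and none passed the test. Of 34 members 26 were positive, with a median of 0.25, beside 48% and -0.020 over all genes. With libraries thinned to 200000 counts, 16 of 30 were positive with a median of 0.074, and without end stage replicate 4, the deepest library, the median was 0.14. At an unadjusted p under 0.05, edgeR and DESeq2 each found 0 members and limma-voom 2, beside 7.04% of all genes by edgeR. Beta subunits were positive in 6 of 7 (median 0.29), ATPases in 4 of 5 (median 0.21) and non-ATPase genes in 9 of 11 (median 0.24). Alpha subunits were positive in 1 of 3 (median -0.39). Markers of other cell types moved with this comparison. The macrophage sum was higher in 3 of 4 end stage libraries than in any normal library. Erythrocyte markers were positive in 4 of 4 tested (median 3.07, 1 called), and their sum was above every normal library in 3 of 4 end stage libraries. Mesothelial markers were positive in 1 of 8 (median -0.86, 0 called) and immediate-early genes in 3 of 20 (median -0.49, 1 called lower). The part of these markers in the members' values was not tested.

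At end stage 3 members had every library above every normal library, namely Psmb4, Psmd2 and Psmd4, beside 1.77% of all genes. Psmd4 was at 163, 194, 176 and 198 CPM in end stage replicates 2 to 5, against 54.5, 159.5, 141, 109.5 and 128 CPM in normal. Its log2 fold change was 0.58 ± 0.30 (95% interval -0.024 to 1.18; unadjusted p = 0.0594, adjusted p = 0.738, edgeR). Psmd2, the base subunit on which ubiquitin receptors and shuttle factors dock, was at 107, 126, 135 and 121 CPM at end stage, against 81.8, 105, 82.0, 44.8 and 95.6 CPM in normal. The lowest end stage value was close to the highest normal value, and the log2 fold change was 0.57 ± 0.30 (adjusted p = 0.752, edgeR). With libraries thinned to 200000 counts it was 0.11. Psmb4 was at 329, 352, 298 and 406 CPM at end stage, with a log2 fold change of 0.39 ± 0.23 (adjusted p = 0.798, edgeR). Psma7 averaged 188 ± 52.3 CPM at end stage and 138 ± 26.9 CPM in normal (0.43 ± 0.25; 0.24 without end stage replicate 4). Psmc3, an ATPase, averaged 245 ± 47.9 and 201 ± 31.7 CPM (0.30 ± 0.24; 0.17 without end stage replicate 2).

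With the 3 stages averaged against normal, 24 of 34 members were positive, with a median of 0.12, beside 47% and -0.028 over all genes. With 1 library left out the median was 0.061 (without normal replicate 4) to 0.23 (without normal replicate 2). Psmb4 had the smallest p-value at 0.38 ± 0.19 (unadjusted p = 0.0484, adjusted p = 0.984, edgeR). Psmd4 followed at 0.45 ± 0.24, Psmb10 at 0.44 ± 0.26 and Psmb1 at 0.37 ± 0.22. At an unadjusted p under 0.05, edgeR and DESeq2 each found 1 member and limma-voom 2, beside 5.02% of all genes by edgeR. In the joint test of any difference among the stages and normal, edgeR found 2 members at an unadjusted p under 0.05, Psmd1 (unadjusted p = 0.0144, adjusted p = 0.383) and Psmb4 (unadjusted p = 0.0164, adjusted p = 0.398), beside 8.96% of all genes; DESeq2 found 2 and limma-voom 4.

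Between tumour stages, Psmd1 had the smallest p-value in both comparisons that involve day 28. These comparisons and that of day 28 with normal share the day 28 libraries. Psmd1 was at 105, 122, 117, 135 and 73.1 CPM in day 7 replicates 1 to 5 and at 113.8, 131, 119 and 94.9 CPM in end stage replicates 2 to 5. Day 28 against day 7 gave -0.91 ± 0.30 (unadjusted p = 0.00465, adjusted p = 0.423, edgeR). The highest day 28 value was above the day 7 library of replicate 5, so those groups overlapped, as they did in all 34 tested members, beside 1.37% of all genes without overlap. End stage against day 28 gave 0.97 ± 0.31 (unadjusted p = 0.00406, adjusted p = 0.201, edgeR), with every end stage library above every day 28 library, beside 2.26% of all genes.

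Day 28 against day 7 had 17 of 34 members positive and a median of -0.010, beside 48.7% and -0.014 over all genes. That median changed sign in 17 alternatives and ran with 1 library left out from -0.14 (without day 28 replicate 4) to 0.15 (without day 7 replicate 1). Without Psme3ip1, 16 of 33 members were positive, with a median of -0.069. An unadjusted p under 0.05 was found for 3 members each by edgeR and DESeq2 and for 5 by limma-voom, beside 9% of all genes by edgeR. Psmb4 had 0.61 ± 0.22 (adjusted p = 0.459, edgeR) and Psma5 -1.55 ± 0.73 (adjusted p = 0.548, edgeR). End stage against day 28 had 21 of 34 positive and a median of 0.16, beside 49.5% and -0.0063. The median was 0.0052 without the 3 libraries under 150000 counts, and with 1 library left out it ran from 0.068 (without end stage replicate 4) to 0.23 (without day 28 replicate 3). There, edgeR found 2 members at an unadjusted p under 0.05 and DESeq2 and limma-voom 1 each, beside 9.72% of all genes by edgeR. Psmg3, an assembly chaperone that pairs with Psmg4 to place alpha subunits, had 1.06 ± 0.51 (adjusted p = 0.509, edgeR).

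End stage against day 7 had 21 of 34 positive and a median of 0.086, beside 49.8% and -0.0025 over all genes. With 1 library left out the median ran from 0.028 (without day 7 replicate 5) to 0.15 (without day 7 replicate 4). An unadjusted p under 0.05 was found for 0 members each by edgeR and DESeq2 and for 2 by limma-voom, beside 7.49% of all genes by edgeR. Psmf1, an inhibitor of the core particle, had the smallest p-value at 0.68 ± 0.38 (adjusted p = 0.8, edgeR), and 0.42 without end stage replicate 2. Psmd8, a lid subunit, was the only member with every end stage library above every day 7 library, beside 1.76% of all genes. It was at 176, 182, 192 and 207 CPM at end stage, against 94.2, 162, 156, 151 and 96.4 CPM at day 7 (0.49 ± 0.31).

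The interferon-inducible members did not pass the test at any stage. Psmb10, which replaces Psmb7 in the immunoproteasome, was at 216, 186, 128, 104 and 139.6 CPM in day 7 replicates 1 to 5, at 166, 33.6, 252, 209 and 136 CPM in day 28 replicates 1 to 5 and at 218, 172, 114.4 and 86.3 CPM in end stage replicates 2 to 5, against 109, 95.2, 125, 107 and 134 CPM in normal replicates 1 to 5. At day 7, 3 libraries lay above the normal range and 2 within it. At day 28, 4 lay above and replicate 2, a shallow library, below, and at end stage 2 lay above, 1 within and replicate 5, another shallow one, below. The log2 fold change against normal was 0.40 ± 0.30 at day 7, 0.52 ± 0.32 at day 28 and 0.39 ± 0.32 at end stage, with adjusted p of 0.999, 0.767 and 0.917 by edgeR. With libraries thinned to 200000 counts the end stage value was -0.060, and without end stage replicate 2 it was 0.17. The day 28 value was 0.30 without day 28 replicate 3. The activator Psme1 averaged 245 ± 92.6 CPM in normal, 202 ± 59.6 at day 7, 245 ± 104 at day 28 and 258 ± 45.4 at end stage. The groups overlapped, and the log2 fold change against normal was -0.28 ± 0.27 at day 7, 0.047 ± 0.28 at day 28 and 0.078 ± 0.28 at end stage. Its partner Psme2 averaged 76.3 ± 15.6, 71.98 ± 36.7, 55.8 ± 43.1 and 93.8 ± 32.4 CPM in the same order. Psme3, the nuclear activator, which is not counted among the interferon-inducible members, averaged 52.4 ± 11.7, 57.6 ± 31.5, 66.2 ± 14.6 and 54.0 ± 19.2 CPM.

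The other immunoproteasome subunits, outside the 47 members, did not pass the test either. Psmb8 averaged 81.5 ± 24.0 CPM in normal, 93.1 ± 26.9 CPM at day 7, 98.4 ± 59.1 CPM at day 28 and 116 ± 15.5 CPM at end stage, with a log2 fold change at end stage against normal of 0.50 ± 0.33 (adjusted p = 0.855, edgeR). Psmb9 averaged 39.9 ± 15.8 CPM in normal, 36.9 ± 13.5 CPM at day 7, 53.7 ± 42.6 CPM at day 28 and 24.3 ± 4.98 CPM at end stage. Its log2 fold change against normal was 0.51 ± 0.45 at day 28 (adjusted p = 0.852) and -0.62 ± 0.47 at end stage (adjusted p = 0.897), and end stage against day 28 gave -1.13 ± 0.49 (adjusted p = 0.419, edgeR). The 24 interferon-stimulated markers include Psmb8 and Psmb9, so their sum is not a separate measure from these genes. It was 1579.6 to 2035 CPM in normal, 1596 to 2540.4 at day 7, 1438 to 3848 at day 28 and 1488 to 1962 at end stage. The part of the other markers in the values of Psmb10, Psmb8 and Psmb9 was not tested.

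Both tested catalytic subunits of the standard core overlapped normal at every stage. Psmb5, the chymotrypsin-like subunit, averaged 81.6 ± 20.2 CPM in normal, 87.1 ± 7.02 at day 7, 122 ± 72.02 at day 28 and 107 ± 42.9 at end stage. Psmb6, the caspase-like subunit, averaged 163 ± 31.1, 181 ± 37.8, 139.9 ± 56.9 and 192 ± 41.9 CPM in the same order. Against normal the log2 fold changes of Psmb5 were 0.085 ± 0.32, 0.48 ± 0.34 and 0.33 ± 0.34 at day 7, day 28 and end stage, and those of Psmb6 were 0.15 ± 0.25, -0.14 ± 0.27 and 0.26 ± 0.27. Psmd14, the deubiquitinase of the lid, had 0.040 ± 0.39, -0.45 ± 0.46 and -0.085 ± 0.42. Psmc4, an ATPase, had 0.17 ± 0.27, 0.092 ± 0.29 and 0.29 ± 0.29. Several of these values turned sign or shrank under an alternative. Psmb5 was -0.011 at day 7 without normal replicate 3 and 0.12 at day 28 without day 28 replicate 3. At end stage it was 0.13 without end stage replicate 5 and -0.024 with thinning. Psmb6 at day 28 was 0.085 without the 3 shallowest libraries, and Psmc4 at day 28 was -0.056 without normal replicate 3. Psmd14 was -0.76 at day 7 with thinning, and at end stage 0.072 with limma-voom and 0.10 without the 3 shallowest libraries. Thinned values come from a single random draw of counts. Values near 0 and intervals of this width do not show that the levels were equal.

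Genes that work with the proteasome, listed separately, gave no call either. Of 20 proteasome-associated genes and regulators 16 were in the table and 11 were tested; of 12 shuttle and segregase genes 11 were in the table and tested; of 21 ubiquitin genes and activation enzymes 20 were in the table and 13 were tested. None of these 35 genes passed an adjusted p of 0.05 against normal by edgeR, DESeq2 or limma-voom. Before adjustment, the count at p under 0.05 at day 28 was 5 by edgeR, 5 by DESeq2 and 6 by limma-voom, beside 7.06% of all genes by edgeR. Each tool gave 0 at day 7, beside 3.48%, and 1 at end stage, beside 7.04%. Zfand5, which binds the proteasome and stimulates degradation, had the smallest p-value among them, at -0.79 ± 0.26 at day 28 (adjusted p = 0.572) and -0.56 ± 0.26 at end stage (adjusted p = 0.636). Pomp, the chaperone that completes assembly of the core, had -0.97 ± 0.41 at day 28 (adjusted p = 0.663). Akirin2, of the same list, lay in the other direction at day 28, at 0.59 ± 0.28 (adjusted p = 0.699, edgeR). Nsfl1c, a cofactor of the unfolding ATPase Vcp, had -1.04 ± 0.47, and Uba1, the ubiquitin-activating enzyme, 0.54 ± 0.26. Nfe2l1 had 0.13 ± 0.25 at day 7, 0.34 ± 0.26 at day 28 and 0.10 ± 0.26 at end stage.

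Members differed in how much they varied between libraries of one group. The biological coefficient of variation (BCV), edgeR's estimate of spread beyond counting error, ran over tested members from 0.238 for Psmc3 to 0.806 for Psma3, with a median of 0.297, beside a median of 0.326 over all genes tested. These medians do not compare genes of like level. Genes within 0.5 log2 CPM of Psmb4 had a median of 0.276, and those within 0.5 log2 CPM of Psma5 0.399. Psma3 varied more than 99.4% of 2348 genes within 0.5 log2 CPM of its level, a comparison chosen after values were seen. In normal libraries alone its level ran from 5.45 to 65.7 CPM, and at day 7 from 3.32 to 70.4. Psmc3, by comparison, ran from 167 to 242 CPM in normal.

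**Figure D4:**
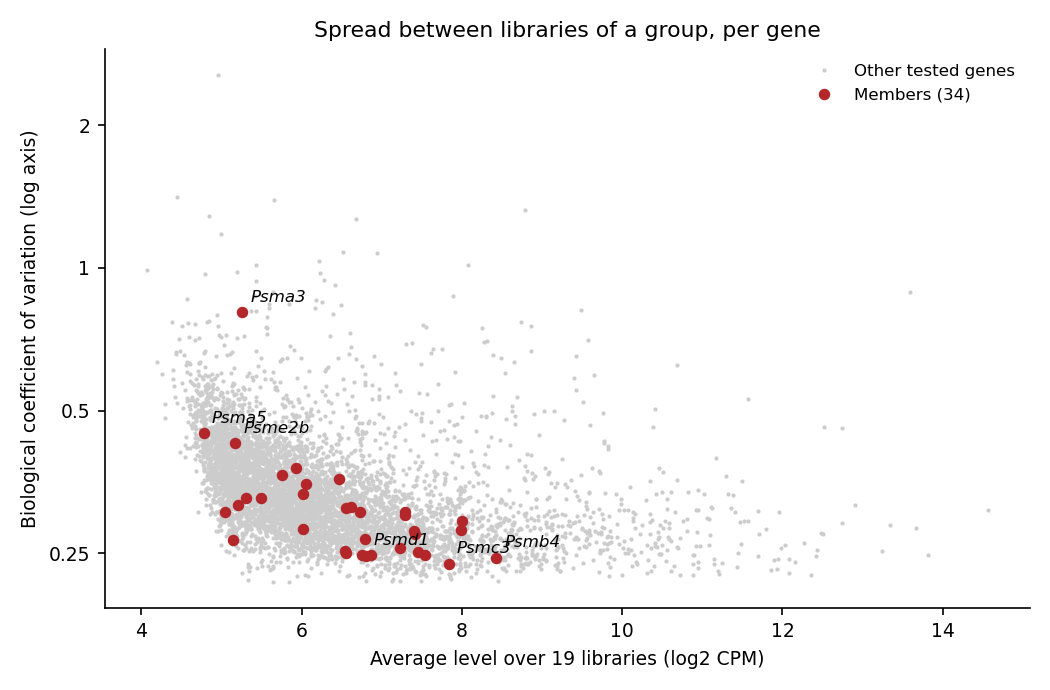
Biological coefficient of variation (y axis, log scale) against average level in log2 CPM (x axis) for the 34 tested members (red) and all other tested genes (grey). Psma3 lies far above the other members, and the remaining members lie within the cloud of other genes.

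The 13 members below the filter were Psma1, Psma2, Psma4, Psma6, Psmb7, Psmc6, Psmd9, Psmd10, Psmd11, Psme4, Psmg1, Psmg2 and Psmc3ip. None had more than 76 counts in any library, and Psmd10, an assembly chaperone of the regulatory particle, had no count in 12 of 19. Of the 7 alpha subunits 4 fell here, so the alpha fold changes above rest on 3 genes, whereas the alpha sums count all 7. At day 28, Psma1 and Psma4 had higher means than in normal, and Psma2 and Psma6 lower means. Psmb7, the trypsin-like catalytic subunit, averaged 13.5 ± 12.0 CPM in normal, 29.7 ± 12.8 at day 7, 17.3 ± 13.2 at day 28 and 14.0 ± 10.1 at end stage. Psmd11, a lid subunit, averaged 23.9 ± 24.0, 17.6 ± 16.4, 12.1 ± 8.20 and 22.4 ± 15.6 CPM, and Psmg1, an assembly chaperone, 21.2 ± 3.54, 16.9 ± 12.9, 40.3 ± 22.4 and 20.6 ± 7.27 CPM. No difference was tested for these 13 members.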

How the data were processed

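MARS-seq counts were analysed for 19 libraries of sorted mouse peritoneal fibroblasts. The submitters' processing notes name DESeq2 and GRCm39. The sources used here name no aligner, counter or annotation and do not say how molecular identifiers were handled. The deposited table holds raw counts per gene, 19 columns of normalized counts that were not used, and, per the file headers, the authors' log2 fold changes and adjusted p-values for 6 comparisons.

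Members and gene lists were chosen with earlier results of these data known. Genes passing edgeR's filterByExpr (minimum count 10; 5980 of 12799) were tested over all 19 libraries with TMM scaling (factors 0.949 to 1.099) and edgeR 4.0.16's quasi-likelihood test, Benjamini-Hochberg adjusted over all genes tested, in R 4.3.3. Library levels of single genes are CPM with TMM scaling; sums are CPM of library totals. Named members are those with the 6 smallest p-values against normal, the 3 smallest between stages and a list of 13 followed throughout, of which 10 were tested. Related lists name up to 3 genes by p. DESeq2 1.42.0 and limma 3.58.1 (voom), other scaling and filters, a replicate block, thinning and leaving out libraries were alternatives. Shares over all genes are given for edgeR only, so counts by DESeq2 and limma-voom have no share of the same tool beside them. The scripts were also run on simulated counts. The outcome is not given here, so how often a true difference of a given size would be called is not stated. Depth ran from 66061 to 2449339 counts, so 3 counts equal 1.22 to 45.4 CPM, counting error only. Where libraries of a group do not come from separate mice, p-values measure only the spread between samples. Promoters are RefSeq's on GRCm38.p6; no coordinates were taken from GRCm39.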

Additional observations from a re-analysis of the deposited data

Results flagged for a closer look

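In 52 groups of 4 or 5 libraries, covering the summed level and 12 members chosen after values were seen, 5 had a single library far from the others, where chance alone flags about 1 in 20 groups. The summed level of the 45 proteasome genes was 3183 CPM in day 7 replicate 5, with the other day 7 libraries at 3729.7 to 3770.1 CPM. It was 4222 CPM in end stage replicate 4, the deepest library, with the others at 3656 to 3747 CPM. Psmb4 was 359 CPM in day 7 replicate 5, with the others at 229 to 266 CPM. Psmd7 was 239 CPM in day 28 replicate 4, with the others at 112 to 146 CPM. Psmd2 was 133 CPM in day 7 replicate 1, with the others at 75.01 to 84.2 CPM.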

How the results depend on the processing

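No alternative, and no fit that left out 1 library, called a member in any comparison. Of 3250 values recomputed under alternatives, 107 log2 fold changes of named members and 19 medians over the members changed sign, the medians being 17 in day 28 against day 7 and 2 in day 28 against normal, and 4 counts of positive members moved by over 1.5 times. Of 91 fold changes of named members, 65 moved by over 1.5 times or turned sign with some library left out and 68 under another alternative. The stricter filter of 30 counts kept 21 members, of which 14 were positive in day 7 against normal, 11 in day 28 against day 7 and 12 in end stage against day 28. These counts are out of 21 members in place of 34, so they are not like for like with the main counts. Thinning left 16 of 30 positive in end stage against normal. It was a single random draw, and libraries under 200000 counts were left as they were. With limma-voom and quality weights, the log2 fold change of the opposite sign was 0.052 for Psma3 and 0.23 for Psme2 in day 7 against normal, 0.072 for Psmd14 in end stage against normal, 0.036 for Psmd14 and 0.10 for Psme1 in the averaged stages against normal, 0.036 for Psmb10 in end stage against day 28, -0.17 for Psma7, 0.20 for Psmb10 and -0.023 for Psmd1 in end stage against day 7. With scaling to library totals in place of TMM, the log2 fold change of the opposite sign was -0.0097 for Psmd1 in day 7 against normal, -0.012 for Psme1 in end stage against day 28. With no filter on low counts, the log2 fold change of the opposite sign was 0.023 for Psme2 in day 7 against normal, -0.015 for Psme1 in day 28 against normal, 0.013 for Psmb10 in end stage against day 7. With the stricter filter of 30 counts, the log2 fold change of the opposite sign was -0.0067 for Psmd1 in day 7 against normal, -0.018 for Psme2 in the averaged stages against normal. With the replicate number as a block, the log2 fold change of the opposite sign was -0.023 for Psmd14 in day 7 against normal, -0.12 for Psme2 in the averaged stages against normal, -0.074 for Psma7 and 0.032 for Psmb10 in end stage against day 7. Without the 3 libraries under 150000 counts, the log2 fold change of the opposite sign was 0.085 for Psmb6 and 0.028 for Psme2 in day 28 against normal, 0.10 for Psmd14 in end stage against normal, 0.064 for Psme1 in the averaged stages against normal, 0.15 for Psmc4 and 0.032 for Psme2 in day 28 against day 7, -0.11 for Psmc4 and -0.19 for Psme1 in end stage against day 28, -0.019 for Psma7, 0.14 for Psmb10 and 0.053 for Psmd14 in end stage against day 7. With libraries thinned to 200000 counts, the log2 fold change of the opposite sign was 0.24 for Psma3 and -0.76 for Psmd14 in day 7 against normal, 0.10 for Psma7 in day 28 against normal, -0.060 for Psmb10, -0.024 for Psmb5 and -0.026 for Psme2 in end stage against normal, -0.32 for Psme2 in the averaged stages against normal, 0.16 for Psmd14 in day 28 against day 7, -0.17 for Psmd2, -0.49 for Psmb5, -0.028 for Psmb6 and 0.72 for Psmd14 in end stage against day 7. In day 7 against normal, leaving out 1 library at a time gave -0.011 to 0.23 for Psmb5, -0.067 to 0.13 for Psmd1, -0.16 to 0.22 for Psmd14 and -0.23 to 0.19 for Psme2. In day 28 against normal, leaving out 1 library at a time gave -0.27 to 0.030 for Psmb6, -0.056 to 0.20 for Psmc4 and -0.18 to 0.27 for Psme1. In end stage against normal, leaving out 1 library at a time gave -0.44 to 0.094 for Psmd14 and -0.045 to 0.30 for Psme1. In the averaged stages against normal, leaving out 1 library at a time gave -0.30 to 0.011 for Psmd14, -0.17 to 0.17 for Psme1 and -0.11 to 0.11 for Psme2. In day 28 against day 7, leaving out 1 library at a time gave -0.10 to 0.33 for Psmb10 and -0.18 to 0.026 for Psmc4. In end stage against day 28, leaving out 1 library at a time gave -0.37 to 0.21 for Psmb5, -0.35 to 0.10 for Psmb10 and -0.11 to 0.26 for Psme1. In end stage against day 7, leaving out 1 library at a time gave -1.47 to 0.20 for Psma3, -0.17 to 0.16 for Psma7, -0.24 to 0.13 for Psmb10, -0.060 to 0.15 for Psmd1 and -0.50 to 0.070 for Psmd14. Of 27 same-numbered pairs of libraries, 12 correlated over 0.1 (-0.42 to 0.53). Pairs of unlike number were not compared, so whether the replicate numbers pair the libraries cannot be told. With the replicate block 0 members were called. For the summed level, counting all 47 matches, TMM-scaled library sizes and leaving out 1 library were chosen after seeing the data and moved each group's mean by less than its SD. Fits of 2 groups alone gave no averaged comparison. The causes of these changes were not tested. Depth limits the 13 members not tested and the values of the 3 libraries under 150000 counts.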
